A study of Mus musculus with 8 samples.

Results

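The Eph, ephrin, netrin, RGM, Slit and Robo genes were described in RNA-seq libraries of mouse small cell lung cancer (SCLC) cells with and without forced expression of Nfib. A gene was included when its row was protein coding and its symbol belonged to the Eph receptors, ephrins, netrins or netrin-Gs, the UNC5 receptors, the Slits, the Robos, or was Dcc, Neo1, Rgma or Rgmb. This gave 42 of the 22691 genes with counts, 42 of 17113 protein-coding ones, and the rule reads symbols and biotypes, not measured values, although it was set with earlier results of these data known.

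Libraries came from cells grown out of primary lung tumors of mice with the invCAG-Mycl-Luc transgene and the Rb1-/- genotype on a mixed FVB/n and 129/Ola background, and both groups share these alleles. In 4 libraries the cells carried an empty vector and in 4 they overexpressed mouse Nfib, which encodes a DNA-binding member of the nuclear factor I (NFI) family. Each number from 1 to 4 holds 1 library of either kind, with the same line and the same word old or new in the labels. The 2 libraries are here called a pair and taken to be of 1 culture, which the labels do not state. Pair 1 is from the line Lmyc1, pairs 2 and 3 from Lmyc3 and pair 4 from Lmyc5. Pairs 1 and 2 are called old and pairs 3 and 4 new in the labels, and what these words mean is not stated in the sources used here. The 4 pairs thus stand for 3 lines, none of these libraries is of normal lung, and nothing says that an arm was grown more than once. Tests without regard to the pairing therefore measure the change against the spread between these cultures. Tests within pairs measure it against how the change differs between the 4 pairs, part of which may be technical.

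Guidance cues are secreted or membrane-bound proteins that attract or repel growing axons and migrating cells. Ephrins on one cell bind Eph receptor tyrosine kinases on the next, netrins bind DCC, neogenin and the UNC5 receptors, RGM proteins bind neogenin, and Slits bind Robo receptors. SCLC is a neuroendocrine lung tumor whose cells share many transcripts with neurons, and several of these receptors are also known from blood vessels.

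The libraries held between 21815264 and 29934021 counts each. Levels are given in CPM (counts scaled to library size), and where a library had no count its level may be up to that of 3 counts, 0.102 to 0.142 CPM, counting error alone considered. Nfib itself was at 71.9, 399, 163 and 487 CPM in the empty vector libraries of pairs 1 to 4 and at 1281, 4672, 2929 and 3583 CPM in their Nfib libraries, so each library matched its label. The 7 neuroendocrine markers given here (Insm1, Chga, Syp, Ncam1, Uchl1, Calca and Nkx2-1) summed to between 2434 and 3311 CPM with empty vector and between 1899 and 2567 CPM with Nfib, so these markers of the labelled cell type were present. Nkx2-1, a lung lineage factor, was the only 1 of the 7 to pass the paired test described later (log2 fold change -0.39 ± 0.11, adjusted p = 0.0122, paired DESeq2), and its part in the results was not tested. Endothelial markers summed to at most 1.89 CPM with empty vector and 6.81 CPM with Nfib, where the latter was mostly Kdr at 5.74 and 6.47 CPM in the Nfib libraries of pairs 2 and 3. Fibroblast markers summed to at most 12.7 CPM (mostly Pdgfra), alveolar and airway markers to at most 12.9 CPM and leukocyte markers to at most 2.49 CPM, where Ptprc, the general leukocyte gene, was at 0 in 7 libraries and at 0.0435 CPM in the other.

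Because NFI proteins bind DNA directly, the sequences before the start sites of the 3 genes that passed the paired test described next are shown. They are the 250 bases before each RefSeq start (GRCm38.p6), written 5′ to 3′ on the gene's strand, with a motif match in capitals. Motifs searched on both strands were the NFI core TTGGC, which reads GCCAA on the reverse strand, the NFI palindrome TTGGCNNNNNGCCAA, and the MYC-type E-box CACGTG. The palindrome contains the core, and no other pair of these motifs overlaps by construction. Epha5, an Eph receptor (chr5:84417383-84417632, minus strand, no match), is given together with Ntn4, a netrin (chr10:93640799-93641048, plus strand, no match), and the 3 starts of the Slit receptor Robo2 (minus strand). The first Robo2 start (chr16:75447294-75447543) has CACGTG beginning 18 bases before the start, the second (chr16:75092771-75093020) has TTGGC beginning 78 bases before it and the third (chr16:74411826-74412075) has no match.
Epha5: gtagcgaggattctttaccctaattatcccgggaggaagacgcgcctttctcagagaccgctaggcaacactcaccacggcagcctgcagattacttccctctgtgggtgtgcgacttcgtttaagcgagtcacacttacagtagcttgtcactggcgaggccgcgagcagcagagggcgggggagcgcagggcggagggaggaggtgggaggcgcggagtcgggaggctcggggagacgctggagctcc
Ntn4: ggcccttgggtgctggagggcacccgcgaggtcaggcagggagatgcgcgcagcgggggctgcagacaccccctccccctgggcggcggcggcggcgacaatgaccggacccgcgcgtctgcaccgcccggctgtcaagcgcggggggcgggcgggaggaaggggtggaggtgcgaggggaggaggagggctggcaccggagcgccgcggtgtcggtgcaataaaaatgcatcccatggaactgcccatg
Robo2 start 1: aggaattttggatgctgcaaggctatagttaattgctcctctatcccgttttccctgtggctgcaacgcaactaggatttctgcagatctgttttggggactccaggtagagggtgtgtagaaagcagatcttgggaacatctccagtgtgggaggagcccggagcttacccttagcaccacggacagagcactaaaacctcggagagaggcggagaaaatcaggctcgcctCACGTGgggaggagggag
Robo2 start 2: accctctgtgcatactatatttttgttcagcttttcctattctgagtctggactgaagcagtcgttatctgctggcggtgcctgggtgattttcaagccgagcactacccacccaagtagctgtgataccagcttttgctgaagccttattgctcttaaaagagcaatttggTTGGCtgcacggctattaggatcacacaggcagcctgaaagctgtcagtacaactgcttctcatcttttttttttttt
Robo2 start 3: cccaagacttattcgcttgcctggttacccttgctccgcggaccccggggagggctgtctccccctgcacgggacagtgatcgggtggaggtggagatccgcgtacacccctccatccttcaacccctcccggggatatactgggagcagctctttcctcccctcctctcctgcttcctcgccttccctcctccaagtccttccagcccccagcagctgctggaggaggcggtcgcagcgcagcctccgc

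The third Robo2 start is the one that meets the end of the Robo2 span in the count table (chromosome 16, 73892306 to 74411825), and the other 2 starts lie outside it. RefSeq windows were found for 36 of the 42 genes (43 windows). The NFI core occurred in 22 of these 43 windows (51.2%), from 18 genes, and in 41.5% of all 32851 windows of the same length. The palindrome occurred in none of them and in 0.0365% of all windows, and CACGTG in 4.65% against 6.02%. A match describes letters in these windows and says nothing of binding, which was not measured.

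Of the 42 genes, 32 passed edgeR's filter on low counts and were tested among 13380 genes. The other 10 (Efna1, Efna4, Epha6, Epha7, Epha10, Ntn3, Ntn5, Ntng1, Robo4 and Slit3) reached at most 1.93 CPM, for Efna1 in the Nfib library of pair 2, and only Efna1 and Ntng1 (1.70 CPM in the same library) had at least 1 CPM anywhere. Without regard to the pairing, edgeR's quasi-likelihood test called 0 of 13380 genes (0.0%) at an adjusted p under 0.05 and 0 guidance genes, with 83 genes and 0 guidance genes at an unadjusted p under 0.05. DESeq2's Wald test with the pair as a block called 543 genes (4.06%), 249 higher and 294 lower (324 and 201 when scaled by total counts), and rose or fell is written only of genes that passed it. Of the 32 tested guidance genes 3 passed (9.38%): Epha5 rose, 1 gene against 1.86% of all genes called higher, and Ntn4 and Robo2 fell, 2 genes against 2.2% called lower. edgeR with the same block called none of the guidance genes and none of all genes, although 8 guidance genes (25.0%, against 15.0% or 2012 of all tested genes) had an unadjusted p under 0.05 (Epha5, Ephb1, Ephb6, Ntn4, Robo2, Slit1, Unc5a and Unc5b). In no guidance gene did the empty vector and Nfib groups separate without overlap, against 0.516% of all tested genes.

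Within pairs, 6 of the 32 genes were higher with Nfib in all 4 pairs (Epha3, Epha5, Ephb1, Ephb6, Slit1 and Unc5a, 18.8% against 12.8% of all tested genes) and 2 were lower in all 4 (Ntn4 and Robo2, 6.25% against 12.8%). For Epha3, Epha5 and Ephb1 this includes pairs in which both libraries held at most 3 counts. The DESeq2 estimate was above 0 for 21 and below 0 for 11 of the 32 genes, and their median log2 fold change was 0.18 against -0.0062 over all tested genes. The median differed between pairs, at 0.30, -0.13, 0.10 and 0.06 in pairs 1 to 4. The median over all tested genes lay between -0.0046 and 0.00024 in the 4 pairs. In these bulk samples fewer cells that express a gene and less of its RNA per cell cannot be told apart.

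**Figure D1:**
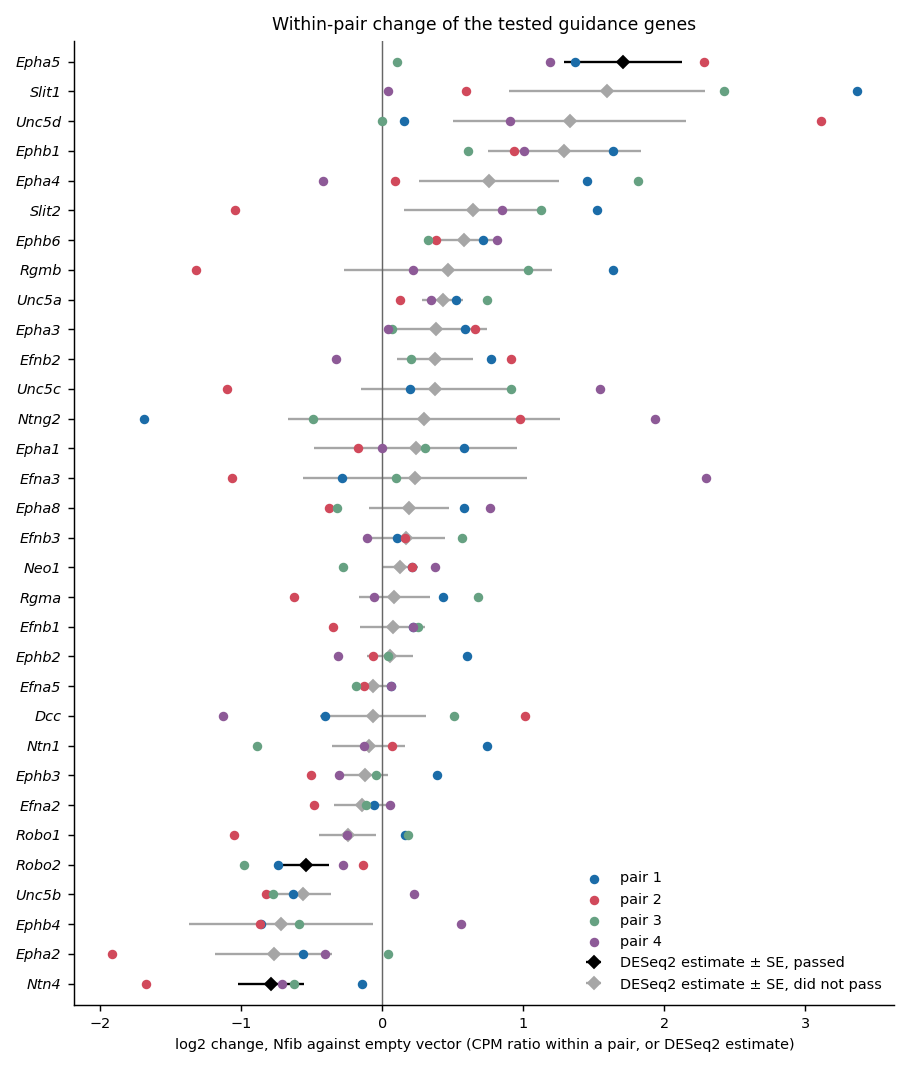
Log2 change with Nfib of the 32 tested guidance genes, as the CPM ratio of each pair (colored points, prior count of 2) and as the paired DESeq2 estimate with its SE (diamonds, black where the gene passed). Epha5 at the top (1.71) and Ntn4 at the bottom (-0.79) passed together with Robo2 (-0.54), and for many genes the 4 pairs lie on both sides of 0.

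Among the EphA receptors, which mainly bind the lipid-anchored ephrin-As, 6 of 9 genes were tested and 1 rose. Epha5, known as a receptor of developing neurons, was at 0, 2.12, 0.0741 and 30.2 CPM in the empty vector libraries of pairs 1 to 4 and at 0.131, 10.6, 0.0862 and 69.0 CPM with Nfib. The gene was thus expressed in pairs 2 and 4 and at or under the 3-count limit in pairs 1 and 3, and the rise was seen where the gene was already on. Its log2 fold change was 1.71 ± 0.42 (SE, paired DESeq2, n = 4 pairs, adjusted p = 0.00309), with an adjusted p of 0.174 by edgeR with the same block. The call was lost without pair 2 (log2 fold change 1.25, adjusted p = 0.0945) and without pair 4 (2.097, adjusted p = 0.358, DESeq2), the only pairs with more than 3 counts in either library.

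Epha8, the other EphA receptor with a mean of at least 10 CPM, had 7.83, 32.1, 1.15 and 10.9 CPM with empty vector and 11.7, 24.7, 0.905 and 18.5 CPM with Nfib. It was higher with Nfib in pairs 1 and 4 and lower in pairs 2 and 3 (0.19 ± 0.28, adjusted p = 0.886, paired DESeq2). The remaining tested EphA genes did not pass. Epha2 was highest in the empty vector library of pair 2 (18.5 CPM against 4.82 with Nfib), Epha3 in pair 4 (18.7 and 19.2 CPM), Epha4 in the Nfib library of pair 1 (17.4 CPM against 6.30) and Epha1 in pair 3 (1.59 and 1.98 CPM). The cultures therefore differed in which EphA receptor they carried. Per length of exon, Epha8 made up the largest part of the EphA sum in both libraries of pairs 1 and 2, and Epha1 in pair 3. In pair 4 the largest part was Epha8 with empty vector (28.0% of the sum) and Epha5 with Nfib. These orders depend on gene length. By CPM, Epha4 led in the Nfib library of pair 1 and Epha5 in both libraries of pair 4, while the leaders in the remaining libraries were the same.

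The EphB receptors, whose main partners are the transmembrane ephrin-Bs, were carried by Ephb2 and Ephb3 in every library. Ephb2 was at 47.4, 82.9, 76.3 and 251 CPM with empty vector and at 71.9, 79.2, 78.4 and 202 CPM with Nfib. Ephb3 was at 56.1, 49.5, 109 and 155 CPM with empty vector and at 73.5, 34.9, 105 and 126 CPM with Nfib. Both were highest in pair 4 in either arm, and the change with Nfib took both signs. Neither passed, with estimates of 0.05 (95% interval -0.26 to 0.37) for Ephb2 and -0.12 (-0.44 to 0.20) for Ephb3. Per length of exon, Ephb3 was above Ephb2 in 7 libraries. In the Nfib library of pair 2 the ratio of Ephb2 to Ephb3 was 1.196, against 0.883 in its empty vector library. This order depends on the gene length used (12608 and 6641 bases of exons, or 10902 and 4748 in the longest transcript). By CPM, Ephb2 was above Ephb3 in both libraries of pairs 2 and 4 and below it in pairs 1 and 3.

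The other EphB genes were less abundant. Ephb6, whose kinase domain is known to lack activity, was at 4.13, 1.18, 12.3 and 11.8 CPM with empty vector and at 6.84, 1.56, 15.4 and 20.8 CPM with Nfib, higher in each pair, with an estimate of 0.58 ± 0.21 that did not pass (adjusted p = 0.0973, paired DESeq2). Ephb1 was at 4.53 and 8.34 CPM with empty vector and 8.72 and 16.8 CPM with Nfib in pairs 2 and 4, and had at most 4 counts in either library of pairs 1 and 3 (1.29 ± 0.54, adjusted p = 0.195, paired DESeq2). Ephb4, which is known from veins, peaked at 2.96 CPM in the empty vector library of pair 3 and did not pass. The endothelial markers given above summed to at most 1.89 CPM with empty vector and 6.81 CPM with Nfib, and the cell source of Ephb4 was not tested.

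The ligands of these receptors did not pass in any case: 0 of the 3 tested of 5 ephrin-A genes and 0 of 3 ephrin-B genes. Efna5 was at 6.71, 89.5, 36.1 and 99.4 CPM with empty vector and at 7.01, 81.8, 31.7 and 104 CPM with Nfib. Of the tested guidance genes it moved least within pairs (by at most 0.18 on the log2 scale) while its empty vector libraries spanned a 14.8-fold range, and its estimate was -0.06 (95% interval -0.26 to 0.13). Efnb2, a ligand of EphB receptors, was at 1.73, 16.6, 4.08 and 31.8 CPM with empty vector and at 3.004, 31.3, 4.70 and 25.4 CPM with Nfib (0.38 ± 0.27, adjusted p = 0.611, paired DESeq2). Both ligands were high in pairs 2 and 4 and low in pairs 1 and 3, in either arm. Efna2 was near its highest in pairs 1 (12.1 and 11.6 CPM) and 4 (11.2 and 11.7 CPM), Efna3 in pair 1 (4.10 and 3.35 CPM), Efnb1 reached 9.10 CPM in the Nfib library of pair 1 and Efnb3 reached 5.77 CPM in the empty vector library of pair 4.

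Netrins were represented by Ntn4 and Ntn1. Ntn4, a netrin of basement membranes, was at 98.0, 38.9, 185 and 124 CPM with empty vector and at 88.8, 12.1, 119 and 75.9 CPM with Nfib. Every pair was lower with Nfib, pair 1 least and pair 2 most (log2 ratios of -0.14, -1.68, -0.63 and -0.71), while the groups overlapped. Ntn4 fell by 0.79 ± 0.23 on the log2 scale (SE, n = 4 pairs, adjusted p = 0.0236, paired DESeq2; 0.255 by edgeR with the block). The call was lost without pair 3 (adjusted p = 0.118) and without pair 4 (adjusted p = 0.134), with log2 fold changes of -0.84 and -0.81 by DESeq2.

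Ntn1, the founding axon attractant of the family, did not move with Ntn4. It was at 1.76, 4.86, 27.6 and 116 CPM with empty vector and at 3.004, 5.10, 14.9 and 106 CPM with Nfib, a 65.6-fold range between empty vector cultures against changes of both signs within pairs (-0.10 ± 0.26, adjusted p = 0.954, paired DESeq2). Ntng2, a membrane-anchored netrin-G, reached at most 1.73 CPM, in the empty vector library of pair 1. Ntn3 and Ntn5 stayed under 1 CPM throughout.

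Neo1 (neogenin), which binds netrins and RGM proteins, was at 159, 146, 170 and 216 CPM with empty vector and 184, 169, 141 and 281 CPM with Nfib. Over the empty vector libraries it had the narrowest range of the tested guidance genes (1.48-fold). Its estimate was 0.12 with a 95% interval of -0.13 to 0.37 (adjusted p = 0.786, paired DESeq2). Dcc, the related netrin receptor, was at 23.1, 0.755, 3.48 and 38.7 CPM with empty vector and at 17.4, 1.61, 5.002 and 17.6 CPM with Nfib. Dcc was lower with Nfib in the pairs where it was high (1 and 4) and higher where it was low (2 and 3), and it did not pass (-0.07 ± 0.37, adjusted p = 0.981, paired DESeq2). Rgma, a neogenin ligand, was at 10.4, 45.1, 4.11 and 29.8 CPM with empty vector and at 14.1, 29.2, 6.64 and 28.6 CPM with Nfib (0.09 ± 0.25, adjusted p = 0.959, paired DESeq2). Rgmb was largely a transcript of pair 4 (24.1 and 28.1 CPM), with at most 2.08 CPM in any other library.

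Among the UNC5 receptors, which mediate repulsion by netrin, Unc5a and Unc5b leaned in opposite directions and neither passed. Unc5a was at 18.5, 26.6, 24.0 and 40.7 CPM with empty vector and at 26.7, 29.0, 40.1 and 51.6 CPM with Nfib, higher in each pair (0.43 ± 0.15, adjusted p = 0.0669, paired DESeq2). It passed when libraries were scaled by total counts (adjusted p = 0.0412), when the Lmyc3 pairs were summed (0.0295) and without pair 2 (0.0253, all DESeq2). Unc5b was at 82.0, 6.23, 96.4 and 2.52 CPM with empty vector and at 52.9, 3.49, 56.3 and 2.96 CPM with Nfib, lower in pairs 1 to 3 and not in pair 4 (-0.56 ± 0.19, adjusted p = 0.0777, paired DESeq2). Without pair 4, where it was lowest, its estimate was -0.74 and passed (adjusted p = 0.00014, DESeq2).

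The cultures thus split by which UNC5 receptor was the more abundant. Per length of exon, Unc5b stood at 2.95 and 2.68 times Unc5a in the empty vector libraries of pairs 1 and 3 and at 1.32 and 0.934 times with Nfib. In pairs 2 and 4 it stood at 0.156 and 0.0413 times Unc5a with empty vector and at 0.0801 and 0.0382 times with Nfib. The ratio was lower with Nfib in all 4 pairs. Its size depends on gene length (6258 bases of exons for Unc5b and 4168 for Unc5a). By CPM, Unc5b was above Unc5a in both libraries of pairs 1 and 3 and below it in pairs 2 and 4. Unc5c was highest in the empty vector library of pair 2 (14.2 CPM against 6.56 with Nfib) and Unc5d in the Nfib library of the same pair (3.49 CPM against 0.330), and neither passed. Unc5b is also known from endothelial cells. Their markers summed to at most 1.89 CPM with empty vector and 6.81 CPM with Nfib, and the cell source of Unc5b was not tested.

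Slit1 was the main Slit in every library and the tested guidance gene with the largest change within a single pair. It was at 4.34, 70.5, 7.26 and 327 CPM with empty vector and at 45.5, 107, 39.3 and 336 CPM with Nfib, higher in each pair, by log2 ratios of 3.37, 0.60, 2.42 and 0.04. The difference was large in pairs 1 and 3, where the empty vector level was low, and small in pair 4, where it was highest. The paired DESeq2 estimate of 1.59 ± 0.70 did not pass (adjusted p = 0.228), nor did it when any 1 pair was left out (lowest adjusted p = 0.125, without pair 4). Its size was not stable, at 0.99 without pair 1, 2.15 without pair 4, 0.93 by voom with the block and 0.36 with no block. Slit2 was highest with empty vector in pair 2 (19.8 CPM, 9.59 with Nfib) and with Nfib in pair 4 (10.8 CPM, 5.95 with empty vector), and was higher with Nfib in the other 3 pairs (0.64 ± 0.49, adjusted p = 0.642, paired DESeq2).

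Of their receptors, Robo1 and Robo2 were detected at 44.2 CPM or more in every library. Robo1 was at 209, 770, 436 and 877 CPM with empty vector and at 234, 371, 494 and 737 CPM with Nfib, lower in pairs 2 and 4 and higher in pairs 1 and 3, with an estimate of -0.25 (95% interval -0.65 to 0.15, adjusted p = 0.690, paired DESeq2). Without pair 2 this estimate was 0.02. Robo2 was at 80.2, 121, 87.0 and 265 CPM with empty vector and at 47.9, 110, 44.2 and 218 CPM with Nfib. It was lower in each pair, most in pairs 1 and 3 (log2 ratios of -0.74 and -0.98) and least in pairs 2 and 4 (-0.14 and -0.28). Pairs 1 and 3 were also those with the largest within-pair difference in Slit1, which did not pass, and a link between the 2 genes was not tested. Robo2 fell by 0.54 ± 0.16 on the log2 scale (SE, n = 4 pairs, adjusted p = 0.0281, paired DESeq2; 0.237 by edgeR with the block), and this call held only without pair 2, with adjusted p-values of 0.230, 0.296 and 0.0695 without pairs 1, 3 and 4. Robo4, the endothelial Robo, had 1 count in a single library.

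**Figure D2:**
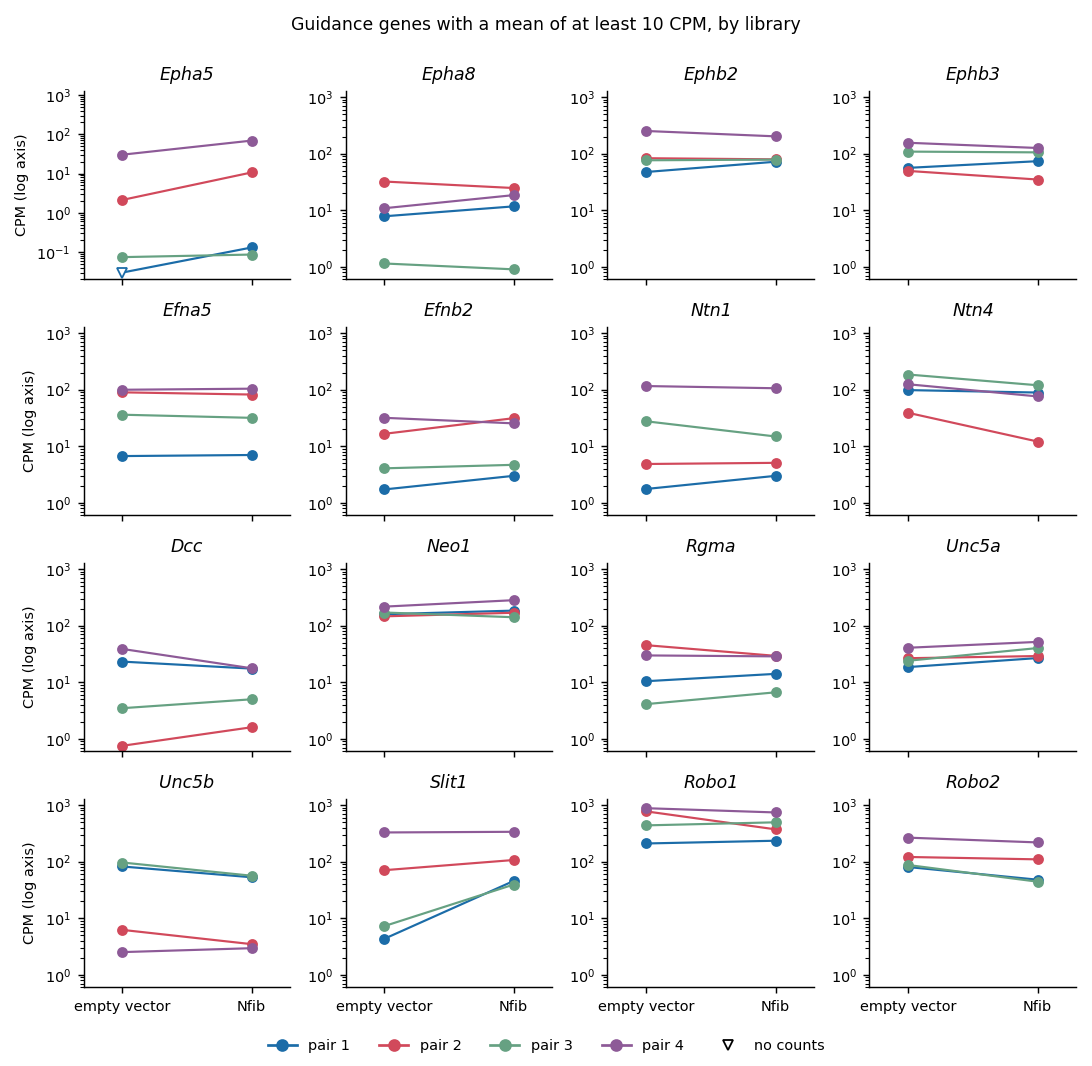
CPM (log axis) of the 16 guidance genes with a mean of at least 10 CPM in each empty vector library and in the Nfib library of the same pair, joined by a line; open triangles mark libraries with no counts, and the panel of Epha5 reaches lower than the others. Lines are mostly far apart and flat, Slit1 converges with Nfib from 4.34 and 7.26 to 45.5 and 39.3 CPM in pairs 1 and 3, and Unc5b separates pairs 1 and 3 from pairs 2 and 4.

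To compare genes and classes, levels were expressed per length of exon (RPKM, CPM per kilobase of the gene's exons). Mean empty vector RPKM was highest for Robo1 (34.7), then Ntn4 (29.8), Neo1 (19.8), Slit1 (17.3), Efna5 (14.4) and Ephb3 (13.9). The ranges over the 4 cultures of neighbours in this order overlapped. All guidance genes together summed to 115, 168, 170 and 317 RPKM with empty vector and to 127, 136, 151 and 302 RPKM with Nfib, so the culture of pair 4 stood highest and both libraries of a pair lay closer together than the lowest and highest culture. Ligands made up 36.9%, 37.7%, 41.2% and 48.7% of the sum with empty vector and 37.5%, 43.4%, 36.9% and 47.4% with Nfib, higher with Nfib in pairs 1 and 2 and lower in pairs 3 and 4.

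Receptors outweighed ligands in all 8 libraries, and the make-up of the ligands set the cultures apart. Netrins, mostly Ntn4, made up 23.1% of the summed level in the empty vector library of pair 1 and 31.7% in that of pair 3, where Slits made up 0.681% and 0.764%. In pair 4 the Slits had 17.5% and the netrins 16.3%, and in pair 2 the ephrin-As led the ligands with 15.0%. Among receptors, Robos had 15.2%, 31.9%, 18.6% and 21.7% in pairs 1 to 4, and UNC5 receptors had 15.7% and 12.5% in pairs 1 and 3 against 4.84% and 3.23% in pairs 2 and 4. The Robo share depends on gene length, since it averaged 21.8% ± 7.23 (SD, n = 4) with all exons, 34.2% with the longest transcript and 43.0% with no length. The netrin share averaged 19.4% ± 10.6 with all exons and 9.89% with no length.

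With Nfib the summed netrin level was lower in all 4 pairs (26.5 to 24.2, 11.2 to 4.07, 53.8 to 34.4 and 51.6 to 37.1 RPKM) and the summed Slit level higher in all 4 (0.780 to 7.8003, 12.7 to 18.5, 1.296 to 6.70 and 55.5 to 57.2 RPKM). These sums follow Ntn4 and Slit1, which had at least 54.6% and 93.8% of their class in each library. Slit1 per length was 5.79%, 25.5%, 4.64% and 104% of Robo1 with empty vector and 54.3%, 80.2%, 22.2% and 127% with Nfib. These percentages depend on gene length: Robo1 has 16511 bases of exons and 7563 in its longest transcript, against 5921 and 5673 for Slit1. By CPM, Slit1 was below Robo1 in every library. No test was made on these sums and ratios.

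**Figure D3:**
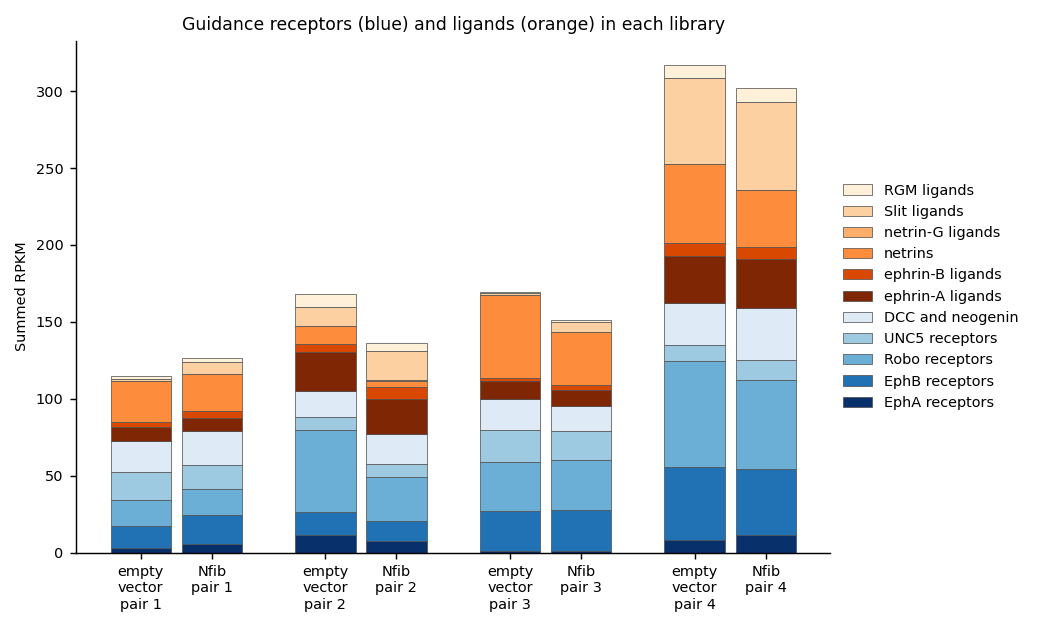
Summed RPKM of each class of receptor (blue) and ligand (orange) in the 8 libraries, side by side within pairs. The sum is largest in pair 4 (317 and 302 RPKM), netrins are lower and Slits higher with Nfib in each pair, and both libraries of a pair look more alike than libraries of different pairs.

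For all 32 tested guidance genes the range of log2 CPM over the 4 empty vector libraries was wider than the largest change within a pair, which was also so for 90.8% of all tested genes. The median range over cultures was 4.28 for the guidance genes and 0.96 for all tested genes, and the median of the largest within-pair change was 0.90 and 0.36. The narrowest range was that of Neo1 (0.57) and the widest those of Epha5 (8.51) and Rgmb (8.19). Across the 32 genes the log2 CPM of the empty vector libraries of pairs 1 and 3, which are from different lines, correlated at r = 0.84 and those of pairs 2 and 4 at r = 0.75, while pairs 2 and 3, both labelled Lmyc3, gave r = 0.68. The other combinations lay lower, at r = 0.55 for pairs 1 and 2, 0.44 for pairs 1 and 4 and 0.56 for pairs 3 and 4. Over all 13380 tested genes, pairs 1 and 3 gave 0.89, pairs 2 and 4 gave 0.88 and pairs 2 and 3 gave 0.81. There pairs 1 and 2 (0.84) and pairs 1 and 4 (0.83) lay above pairs 2 and 3, and pairs 3 and 4 gave 0.81. These are descriptions across genes measured in the same libraries, and genes are not independent replicates.

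**Figure D4:**
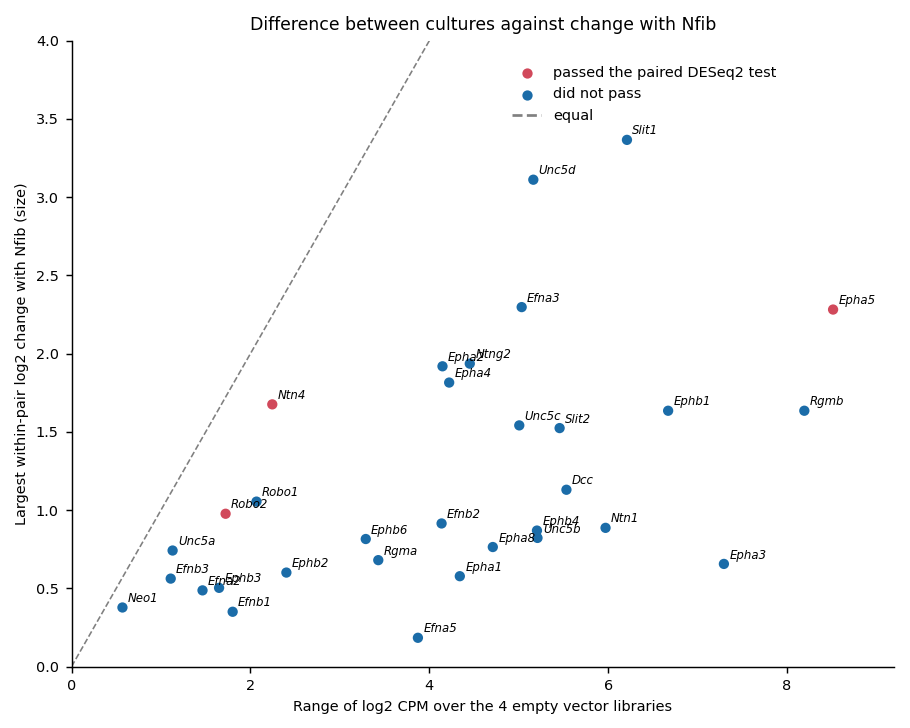
Each tested guidance gene by the range of its log2 CPM over the 4 empty vector libraries (x axis) and the size of its largest log2 change within a pair (y axis, prior count of 2). All 32 points lie below the dashed line of equal size, Neo1 (0.57 on the x axis) and Unc5a close to it and Epha5 (8.51) farthest to the right.

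Whether the change with Nfib differed between the pairs called old and new was tested with edgeR as an interaction. It passed for 0 guidance genes and 0 genes in all, with the smallest adjusted p of a guidance gene at 0.9997. At an unadjusted p under 0.05 there were 405 of the 13380 tested genes and 3 of the 32 tested guidance genes. These 3 were Efnb2, Unc5c and Epha5, with unadjusted edgeR values of 0.0194, 0.0400 and 0.0428. Old and new each hold 2 pairs. Epha5 had at most 3 counts in any library of pairs 1 and 3, so its value rests on pair 2 against pair 4.

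Genes that act with these receptors were read from lists drawn up by function. Of 42 effectors of Eph, netrin and Slit signalling inside the cell, 39 were tested, 0 rose and 3 fell (1.86% of all tested genes rose and 2.2% fell), with a median log2 fold change of -0.06. Rock2, a kinase that acts on the actin cytoskeleton, was at 347, 315, 401 and 385 CPM with empty vector and at 261, 265, 337 and 317 CPM with Nfib, lower in each pair with overlapping groups. Rock2 fell by 0.31 ± 0.06 (log2, SE, adjusted p = 9.98e-05, paired DESeq2) and passed without any 1 pair, but not by edgeR with the block (adjusted p = 0.156). Rock1, its close relative, fell by 0.25 ± 0.07 (adjusted p = 0.0195, paired DESeq2) and passed only without pair 2. Chn1, which encodes a chimaerin that lowers Rac activity after Eph signalling, fell by 0.39 ± 0.12 (adjusted p = 0.0259, paired DESeq2) and passed only without pair 3, and not with total-count scaling (adjusted p = 0.0558).

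Of 28 co-receptors, other ligands and sheddases, 25 were in the table and 23 tested, 1 rose and 1 fell (against the same 1.86% and 2.2%), and the median log2 fold change was 0.09. Dscam, an adhesion molecule that also binds netrin, was at 5.22, 13.9, 0.0741 and 12.4 CPM with empty vector and at 12.7, 17.4, 0.819 and 22.1 CPM with Nfib, higher in each pair. Dscam rose by 1.09 ± 0.35 (log2, SE, adjusted p = 0.0438, paired DESeq2), and it passed only without pair 2. Ndst1, an enzyme that modifies the heparan sulfate that Slits and netrins bind, fell by 0.36 ± 0.08 (adjusted p = 0.00101, paired DESeq2), from 160, 144, 52.9 and 99.1 to 130, 106, 38.5 and 85.1 CPM, and it did not pass without pair 1 (adjusted p = 0.0569) or pair 3 (adjusted p = 0.117). edgeR with the block called none of these 5 genes (adjusted p from 0.156 to 0.272).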

How the data were processed

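RNA of 4 empty vector and 4 Nfib samples was made into libraries with a TruSeq RNA kit of Illumina and sequenced, per the labels' protocols. The authors deposited whole-number read counts per Ensembl gene, not normalized, with symbols, biotypes and coordinates. TopHat2 2.1, Bowtie 1.0.0, SAMtools 0.1.19, DESeq2 and the build GRCm38 (mm10) are named per the submitters' processing notes. How reads were counted, with which strand setting and which annotation release, is not given in the sources used here, so overlapping and antisense genes cannot be told apart. 1 allele of the genotype and 1 gene of the neuroendocrine list are not reported here. Groups came from the source labels, and all 8 count columns were used.

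In R 4.3.3, edgeR 4.0.16 (quasi-likelihood, TMM, filterByExpr by group) tested Nfib against empty vector without a block. DESeq2 1.42.0 (Wald test, no shrinkage) with the replicate number as a block gave the within-pair values. Both adjusted by Benjamini-Hochberg over all genes, with calls at 0.05. DESeq2 left 260 adjusted p-values undefined, and these were kept so. Libraries of 1 number carry the same line in the labels, and libraries of the same number deviated from their group means together (r = 0.908, 0.884, 0.935 and 0.929 across genes, at most 0.0647 for any other combination). DESeq2 was taken for the within-pair fit because the submitters' notes name it, with the knowledge that edgeR with the block calls no gene. Both fits were tested on simulated data, where the paired DESeq2 fit made more calls of unchanged genes than edgeR did. The share of unchanged genes among the paired DESeq2 calls was above the threshold of 0.05 there. The simulated counts were drawn from means and dispersions that edgeR estimated, so this comparison does not rank the fits. Whether that share also holds for the calls in the real libraries was not tested.

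CPM used TMM-scaled library sizes, and log2 ratios a prior count of 2. RPKM divided CPM by the union of exons in GENCODE M21 (GRCm38), which holds 41 of the 42 genes and not the identifier of Ntn3. Its Robo1 model is longer than the span in the table. Start sites and their sequences are from RefSeq (GRCm38.p6). Values in all libraries are given for each guidance gene that passed or averaged at least 10 CPM, and others are named with their highest library where they reached 1 CPM. Guidance genes, marker lists and signalling lists were chosen with earlier results of these data known. Alternatives were other tools (limma 3.58.1 voom, bias-adjusted edgeR), other scalings, no filter, no block, the Lmyc3 pairs summed, each pair left out, and other gene lengths.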

Additional observations from a re-analysis of the deposited data

Results flagged for a closer look

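Within each group of 4 libraries, the highest or lowest value was compared with the rest of its group by Dixon's gap ratio, for 74 groups of guidance genes and called signalling genes. In 13 of them 1 library stood apart. Chance flags about 1 in 20 groups when values are independent and normally distributed. CPM values of different cultures need not be so and both arms share the cultures, so this rate is only a guide. Most were the culture of pair 4: Epha5 was highest there with empty vector (30.2 CPM) and with Nfib (69.0 CPM), as was Rgmb (24.1 and 28.1 CPM). Ephb2 (202 CPM) and Ntn1 (106 CPM) stood apart in the Nfib library of pair 4, and Efnb3 (5.77 CPM) and Epha3 (18.7 CPM) in its empty vector library. Pair 1 stood apart for Efna3 in both arms (4.10 and 3.35 CPM) and for Epha4 with Nfib (17.4 CPM). Unc5c was highest in the empty vector library of pair 2 (14.2 CPM), and Efnb1 was lowest in that of pair 3 (2.30 CPM). Of the genes that passed the paired test, Epha5 alone was among them, and its call without pair 4 is given with its values.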

How the results depend on the processing

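The calls depended on the tool more than on the scaling or the filter. Without a block, DESeq2 called 3 genes where edgeR called 0, and no guidance gene was called by either. With the replicate block, the 543 genes called by DESeq2 became 0 with edgeR, 44 with bias-adjusted edgeR and 3 with voom, and 3 with no replicate block. The count of guidance genes called went from 3 to 0 under each of these 4, and to between 1 and 3 when 1 pair was left out (232 to 387 of all genes). The genes differed: Epha5 and Ntn4 were called without pair 1, Ntn4, Robo2 and Unc5a without pair 2, Epha5 alone without pair 3 and Unc5b alone without pair 4. Epha5 kept its direction under all 12 alternatives (log2 fold change 1.25 to 2.097), as did Ntn4 (-1.001 to -0.50) and Robo2 (-0.67 to -0.39). Some genes that did not pass changed sign, which leaves their direction unknown. With no replicate block these were Ephb2 (-0.0923), Rgma (-0.19), Efna3 (-0.15), Ntng2 (-0.33), Slit2 (-0.18) and Unc5c (-0.55). With the block, edgeR gave -0.16 for Ntng2 and -0.0672 for Rgmb, bias-adjusted edgeR -0.0765 for Efna3, -0.35 for Ntng2 and -0.19 for Unc5c, and voom -0.11 for Rgma, -0.0487 for Ntng2 and -0.27 for Unc5c, while Rgma was -0.00028 with the Lmyc3 pairs summed. Leaving out 1 pair, estimates ran from -0.37 to 0.32 for Dcc, -0.0208 to 0.42 for Epha8, -0.12 to 0.19 for Ephb2, -0.29 to 0.0063 for Ephb3, -0.34 to 0.17 for Ntn1, -0.0929 to 0.33 for Rgma, -0.38 to 0.0245 for Robo1, -0.44 to 0.73 for Efna3, -0.45 to 1.19 for Ntng2, -0.24 to 2.38 for Rgmb and -0.0174 to 0.92 for Unc5c. The cause of these differences was not tested. Summed levels per class changed with gene length for the Robos as given above, for netrins from 19.4% to 9.89%, for ephrin-As from 9.84% to 4.01% and for ephrin-Bs from 2.61% to 1.40% with no length. Genes under about 1 CPM rest on few counts, and no guidance gene under 1 CPM in every library was tested. How large a change would be detectable there at this depth was not tested.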
